A study of Caenorhabditis elegans with 44 samples.

Results

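The C-type lectin genes of the nematode *Caenorhabditis elegans* were taken as all genes whose symbol is clec- followed by a number. This rule gave 240 genes, and each of the 4 deposited tables listed all 240, among 22013 entries for mRNA and 46926 for small RNA (sRNA) in N2, and 22014 and 46927 in *otIs356*. All 240 were protein-coding in the Ensembl annotation of the WBcel235 genome. They lay on every nuclear chromosome, with 36 on I, 48 on II, 14 on III, 53 on IV, 86 on V and 3 on X. Of these, 155 stood in 47 clusters of neighbours no more than 10000 bases apart and 85 stood alone. The symbols *clec-15*, *clec-209* and *clec-249* each belonged to a pair of genes with the same transcript sequence, whose reads cannot be divided between the copies, so values for these pairs are uncertain.

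The study sequenced 44 libraries of whole animals at the first larval stage (L1), 24 of mRNA and 20 of sRNA, to ask how PALS-22 and an Argonaute shape small RNA pathways. In N2, the laboratory wild type, mRNA came from 2 libraries of the double mutant *rrf-3(pk1426); pals-22(pig26)*, 3 of *pals-22(pig26)*, 3 of *rrf-3(pk1426)* and 2 of wild type, and sRNA came from 3 libraries of *pals-22(pig26)* and 3 of wild type. In the second background every strain, wild type included, carried *otIs356*, an integrated repetitive transgene in which a *rab-3* promoter drives TagRFP with nuclear localization signals in neurons. There, both mRNA and sRNA came from 3 libraries of *vsra-1(tm1637); pals-22(pig26)*, 3 of *pals-22(pig26)*, 4 of *vsra-1(tm1637)* and 4 of wild type. Embryos from bleached adults hatched overnight in M9 buffer, and the labels give OP-50 bacteria as the food of the strains. PALS-22 represses a transcriptional program that answers viruses and microsporidia, RRF-3 is an RNA-dependent RNA polymerase that makes templates for endogenous small interfering RNAs, and VSRA-1 is an Argonaute. The labels do not say whether libraries of a genotype came from separate cultures, so the p values measure the spread between libraries, which may be technical.

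C-type lectins share a protein domain that in many animals binds sugars, often with calcium. In *C. elegans* the family is one of the largest groups of secreted and membrane proteins, many members are made in the intestine, and sets of them change when worms meet bacteria, so they are widely used as readouts of innate immunity. The bacterium that a member answers differs between members, and for most of them neither the ligand nor the function is known.

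Library totals ran from 36498609 to 61806727 counts in N2 mRNA, from 5479218 to 33903511 in *otIs356* mRNA, from 11483077 to 43362769 in N2 sRNA and from 7950015 to 21594026 in *otIs356* sRNA. Levels are in CPM, counts scaled to a common library size with TMM factors. For mRNA the deposited values had been scaled by transcript length, so mRNA levels can be compared between genes, while sRNA levels are compared between genes only per kb of coding length. For a gene listed at 0, a floor of 3 length-scaled counts in a library was used, which is at most 0.0900 CPM in N2 mRNA and 0.501 CPM in *otIs356* mRNA. It covers counting error only. In short transcripts 3 reads make more than 3 scaled counts, so multiples of this floor are not strict lower bounds. The *rrf-3* transcript stood at 1.91 to 1.99 CPM in *rrf-3* and at 5.46 to 6.29 CPM in wild type. The *pals-22* transcript stood at 45.4 to 51.5 CPM in N2 *pals-22* and at 26.5 to 26.8 CPM in wild type, so its level does not show loss of the gene. In *otIs356* the *vsra-1* transcript stood at 212 to 304 CPM in *vsra-1;pals-22* and 113 to 157 CPM in *pals-22*, and at 9.31 to 11.7 CPM in *vsra-1* and 11.6 to 14.8 CPM in wild type, so its level does not show loss of *vsra-1* either.

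As a family and with TMM scaling, the lectins gave less mRNA in every N2 mutant than in wild type, and in *pals-22* the difference was not seen once *clec-1* was left out. Their summed mRNA was 1972 and 1981 CPM in *rrf-3;pals-22*, 2335 to 2435 CPM in *pals-22*, 1668 to 2114 CPM in *rrf-3*, and 2792 and 2879 CPM in wild type, with no overlap between mutants and wild type. Scaled by library totals alone, the sums were 2209 to 2366 in *pals-22* and 2344 and 2412 in wild type and overlapped, while those of the double mutant and *rrf-3*, at 2031 to 2288, stayed under wild type. Without *clec-1*, the sum was 1924 to 2006 CPM in *pals-22* and 1894 and 1906 CPM in wild type. *clec-1* (chrV:5700154-5701080) was the member with the most mRNA in wild type of both backgrounds, and no function is known for it here. It measured 114 and 151 CPM in N2 *rrf-3;pals-22*, 444, 463 and 329 CPM in *pals-22*, 320.0, 219.7 and 276 CPM in *rrf-3*, and 898 and 974 CPM in wild type. The *pals-22* libraries and those of *rrf-3* and the double mutant were all under wild type. The order of the means was wild type, *pals-22*, *rrf-3* and the double mutant, and neighbours in this order did not overlap. Levels within the family were steep: in N2 wild type, 64 members had a mean over 1 CPM, 29 over 10 CPM and 7 over 100 CPM, and 41 were at 0 in both libraries. After *clec-1* came *clec-146* at 265.6 and 299 CPM and *clec-50* at 208 and 208 CPM in wild type, whose levels in *pals-22* were 159, 167 and 153 CPM and 228, 242 and 215 CPM. The libraries are of whole animals, in which fewer cells of a type and less RNA per cell cannot be told apart.

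In N2, loss of *pals-22* raised some lectin genes and lowered others, and the largest changes in both directions were in genes of low or moderate level. Of 240 members, 159 had enough counts in some genotype to be tested, 42 rose and 32 fell at an adjusted p under 0.1, which is 46.5% of those tested. Over all 18986 genes tested the called share was 51.1%, with 23.3% higher and 27.8% lower, so the share among lectins was no higher than in the background. The median log2 fold change was 0.03 over the tested lectins and -0.02 over all genes. Of the 74 called members, 60 changed by more than 2-fold, 39 upward and 21 downward.

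Lectins that were near or at 0 in wild type became detectable in *pals-22*, *clec-108* and *clec-216* among them. *clec-108* (chrI:13081412-13082166) measured 3.47, 3.39 and 3.50 CPM in *pals-22*, against no count in wild type (edgeR, adjusted p = 0.000379). Its lowest *pals-22* library was 44.1 times the floor of 3 scaled counts in wild type. *clec-216* (chrV:7951594-7952955) measured 0.351, 0.540 and 0.717 CPM in *pals-22*, against no count in wild type (edgeR, adjusted p = 0.000931), with the lowest library 4.57 times that floor. Every *pals-22* library thus held counts of both genes and no wild-type library held any; the fitted fold changes of such genes depend on the prior count and are not used as sizes. *clec-203* measured 0.988, 1.11 and 0.675 CPM in *pals-22* against 0 and 0.0686 CPM in wild type, and *clec-117* 1.45, 0.630 and 0.633 CPM against 0.102 and 0 CPM, again without overlap.

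Among members over 10 CPM in *pals-22* or wild type, *clec-60* rose most. *clec-60* (chrII:10480043-10481874) is induced when worms are infected with *Staphylococcus aureus*, and it measured 31.6, 30.03 and 45.4 CPM in *pals-22*, against 1.64 and 2.42 CPM in wild type. The fit gave a log2 fold change of 4.13 (SE 0.41) and an adjusted p of 0.000135 in edgeR's quasi-likelihood test. *clec-86* (chrX:7139875-7140566), for which no role is known here, measured 36.0, 32.4 and 37.1 CPM in *pals-22* and 2.31 and 3.36 CPM in wild type, with a log2 fold change of 3.63 (SE 0.21) and an adjusted p of 3.70e-06. In both genes the lowest *pals-22* library stood far above the highest wild-type library. *clec-80* had a log2 fold change of 3.11 (SE 0.33) (3.72 without wild type replicate 1), *clec-42* of 2.98 (SE 0.42) and *clec-10* of 2.86 (SE 0.15). *clec-42*, which is part of the defence against *Bacillus thuringiensis*, measured 3.49, 5.10 and 2.72 CPM in *pals-22* and 0.538 and 0.412 CPM in wild type. The most abundant member that rose was *clec-63*, at 394, 376 and 422 CPM in *pals-22* and 177 and 112 CPM in wild type. Some calls among the 10 largest rested on few counts: *clec-93* (0.0659, 0 and 0.106 CPM in *pals-22*, 0 in wild type) lost its call without any of 4 libraries (*pals-22* replicate 1 or 3 or either wild-type replicate, adjusted p 0.110 to 0.193), and *clec-190* lost it without *pals-22* replicate 1 or wild type replicate 2 (adjusted p 0.1001 and 0.223).

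The lectins that fell in N2 *pals-22* included genes of high level in wild type. *clec-172* measured 0.110, 0 and 0.0633 CPM in *pals-22* and 1.87 and 1.33 CPM in wild type, the lowest log2 fold change of the family at -4.65 (SE 0.85), and at -5.38 without *pals-22* replicate 1. *clec-186* (chrIV:12866109-12869080) measured 0.637, 0.480 and 0.506 CPM in *pals-22* and 10.3 and 11.5 CPM in wild type, a 20.1-fold lower mean (adjusted p = 6.11e-06). *clec-52* (chrIV:8167164-8168760) measured 12.6, 19.4 and 19.03 CPM in *pals-22* and 100 and 111 CPM in wild type, with a log2 fold change of -2.63 (SE 0.22) and an adjusted p of 3.92e-05. In these 3 genes, none of which has a role known here, the groups lay far apart. *clec-68*, *clec-3*, *clec-49* and *clec-53* had log2 fold changes of -3.59, -2.57, -1.87 and -1.83, and both copies named *clec-209* had -1.89; the call of *clec-53* was lost without wild type replicate 1 (adjusted p = 0.122), and the value of *clec-3* was -1.82 without wild type replicate 2. *clec-49* has a role in the response to *Serratia marcescens*. *clec-1* fell to a mean of 412 ± 72.7 (SD, n = 3) CPM in *pals-22*, against 936 ± 53.4 (SD, n = 2) CPM in wild type, 2.27-fold lower (adjusted p = 0.00211).

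Members with a known role did not move as a block. *clec-85* and *clec-67*, targets of the p38 kinase pathway of intestinal immunity, both fell in N2 *pals-22*, with log2 fold changes of -0.92 (SE 0.16) and -0.65 (SE 0.16). In *otIs356* *pals-22* neither was called, at -0.69 (SE 0.30) for *clec-85* and 1.04 (SE 0.66) for *clec-67*. *clec-41*, which with *clec-42* protects against *Bacillus thuringiensis*, rose to 13.96, 12.3 and 15.3 CPM in *pals-22*, against 9.71 and 4.14 CPM in wild type. *clec-4*, which also bears on that infection, measured 0.702, 0.690 and 1.14 CPM in *pals-22* and 0.768 and 0.869 CPM in wild type and was not called (log2 fold change 0.05, SE 0.25). The neighbour of *clec-60*, *clec-61*, which *Staphylococcus aureus* also induces, measured 8.85, 13.6 and 4.66 CPM in *pals-22* and 9.66 and 12.3 CPM in wild type and was not called (log2 fold change -0.28, SE 0.44). The chondroitin proteoglycan genes *clec-87* and *clec-88* were not called either, at log2 fold changes of 0.77 (SE 0.72) and 0.62 (SE 0.67), with wild-type libraries that differed among themselves (21.6 and 3.11 CPM for *clec-87*). *clec-39* (chrV:16739268-16741588), of the *Serratia marcescens* response, *clec-38*, which bears on axon outgrowth, and *clec-70*, an intestinal immune gene, were at or under 0.0900 CPM in all libraries of *pals-22* and wild type and were not tested.

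Markers of other cells moved between the same N2 libraries. The 8 sperm markers, all major sperm protein genes, summed to 88.8 to 309.95 CPM in *pals-22* and to 8.74 and 27.9 CPM in wild type, and all 8 were called higher. The 6 germ-line markers summed to 16.3 to 22.2 CPM in *pals-22* and 6.496 and 8.99 CPM in wild type, the 4 hypodermis markers to 247 to 299 CPM and 172 and 204 CPM, and the 5 molting markers to 33.7 to 45.1 CPM and 15.2 and 18.7 CPM. The 7 intestine markers summed to 1207 to 1325 CPM in *pals-22* to 1354 and 1409 CPM in wild type, with none at 0, 2 called higher and 4 lower. The part of these differences in the lectin changes was not tested.

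In *otIs356*, 3 libraries stood apart from the others of their genotype in molting and hypodermis markers, wild type replicate 4 and *vsra-1* replicates 3 and 4. The 5 molting markers (*mlt-10*, *noah-1*, *fbn-1*, *ptr-4* and *lin-42*) summed to 189, 180.2 and 112 CPM in *pals-22* replicates 1 to 3, and to 24.2, 25.4, 17.7 and 204 CPM in wild type replicates 1 to 4. They summed to 116, 44.9 and 163 CPM in *vsra-1;pals-22* and to 20.1, 28.6, 192 and 156 CPM in *vsra-1*, and the 4 hypodermis markers ran from 977 to 1367 CPM in *pals-22*, with 1091 CPM in wild type replicate 4 and 125 to 191 CPM in the other wild-type libraries. *clec-266* (chrX:6617393-6622915) measured 219, 160.0 and 261 CPM in *pals-22* and 58.7, 42.2, 18.96 and 221 CPM in wild type, high in the libraries in which the molting markers were high. What part these markers have in the lectin values was not tested.

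**Figure D1:**
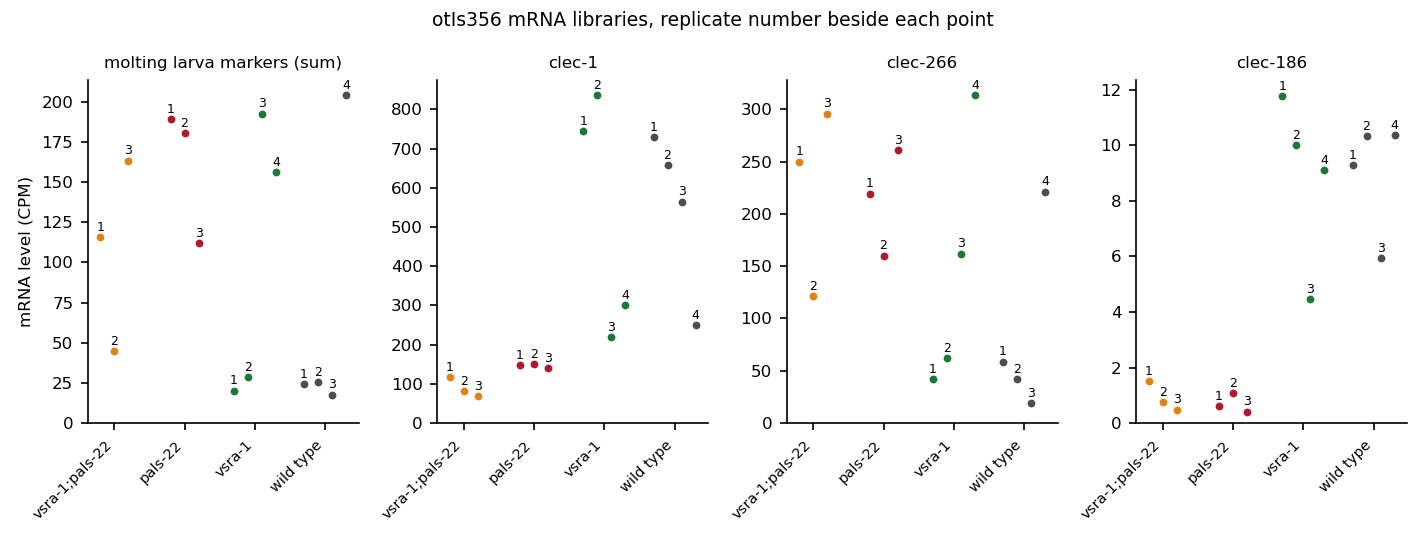
mRNA level (CPM) of the molting markers (summed) and of clec-1, clec-266 and clec-186 in each otIs356 library, by genotype, with the replicate number beside each point. Wild type replicate 4 and vsra-1 replicates 3 and 4 hold 156 to 204 CPM of the markers, where the other libraries of these 2 genotypes hold 17.7 to 28.6 CPM.

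In the *otIs356* background the same comparison called fewer lectins, in both directions. Of 107 members tested, 15 rose and 11 fell in *pals-22*, 24.3% of those tested, where 10.9% of all 16724 genes were called (5.78% higher, 5.10% lower), and under scaling by library totals 15 rose and 7 fell. The median log2 fold change was -0.07 over the tested lectins and -0.01 over all genes. *clec-108* measured 1.501, 2.98 and 4.94 CPM in *pals-22* against no count in the 4 wild-type libraries (edgeR, adjusted p = 0.00765). Its lowest *pals-22* library was 5.38 times the highest wild-type floor. *clec-216* measured 1.94, 2.86 and 0.720 CPM in *pals-22* and 0.0587, 0, 0 and 0 CPM in wild type. *clec-60* measured 4.87, 7.30 and 11.7 CPM in *pals-22* and 0.235, 0.202, 1.02 and 0.184 CPM in wild type, with a log2 fold change of 4.40 (SE 0.74) and an adjusted p of 0.00289. In these 3 genes every *pals-22* library lay above every wild-type library. *clec-186* measured 0.622, 1.08 and 0.412 CPM in *pals-22* and 9.27, 10.3, 5.95 and 10.4 CPM in wild type, with a log2 fold change of -3.68 (SE 0.48) and an adjusted p of 0.000362, and *clec-218* had a log2 fold change of -3.17 (SE 0.53) and an adjusted p of 0.00290. The value of *clec-60* was 5.23 without wild type replicate 3. *clec-1* measured 148, 151 and 139 CPM in *pals-22* and 728, 658, 565 and 249 CPM in wild type, where replicate 4 of wild type stood far below the other 3 but still above *pals-22* (log2 fold change -1.91, SE 0.48, adjusted p = 0.0376). The 3 body wall muscle markers summed to 1401 to 1757 CPM in *pals-22* and to 3124 to 4220 CPM in wild type, replicate 4 included, with 2 of the 3 called lower, and of the 7 intestine markers 1 was called higher and 2 lower. Their part in the lectin changes was not tested.

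Without wild type replicate 4 and *vsra-1* replicates 3 and 4, a setting chosen after the libraries were seen, 64 lectins of 109 tested were called (32 higher and 32 lower, where 46.8% of all genes were called), and all 26 of the calls above were among them. Without wild type replicate 4 alone, 47 of 106 tested were called, 26 higher and 21 lower, which is 44.3%, where 32.6% of all genes were called. Replicate 4 was the only wild-type library with molting and hypodermis markers as high as in *pals-22*. In both settings, genotype and the level of these markers therefore cannot be told apart. In the setting without the 3 libraries, *clec-1* had a log2 fold change of -2.16 and an adjusted p of 2.52e-05, *clec-60* had 4.18, *clec-186* had -3.62 and *clec-33* had 3.79. Among the *otIs356* calls, *clec-33*, *clec-229*, *clec-47*, *clec-12*, *clec-51*, *clec-52*, *clec-1*, *clec-68* and *clec-74* each lost the call without some 1 of the *pals-22* or wild-type libraries (adjusted p up to 0.263 in edgeR), and *clec-33*, *clec-52* and *clec-68* also without some of the libraries of other genotypes.

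**Figure D2:**
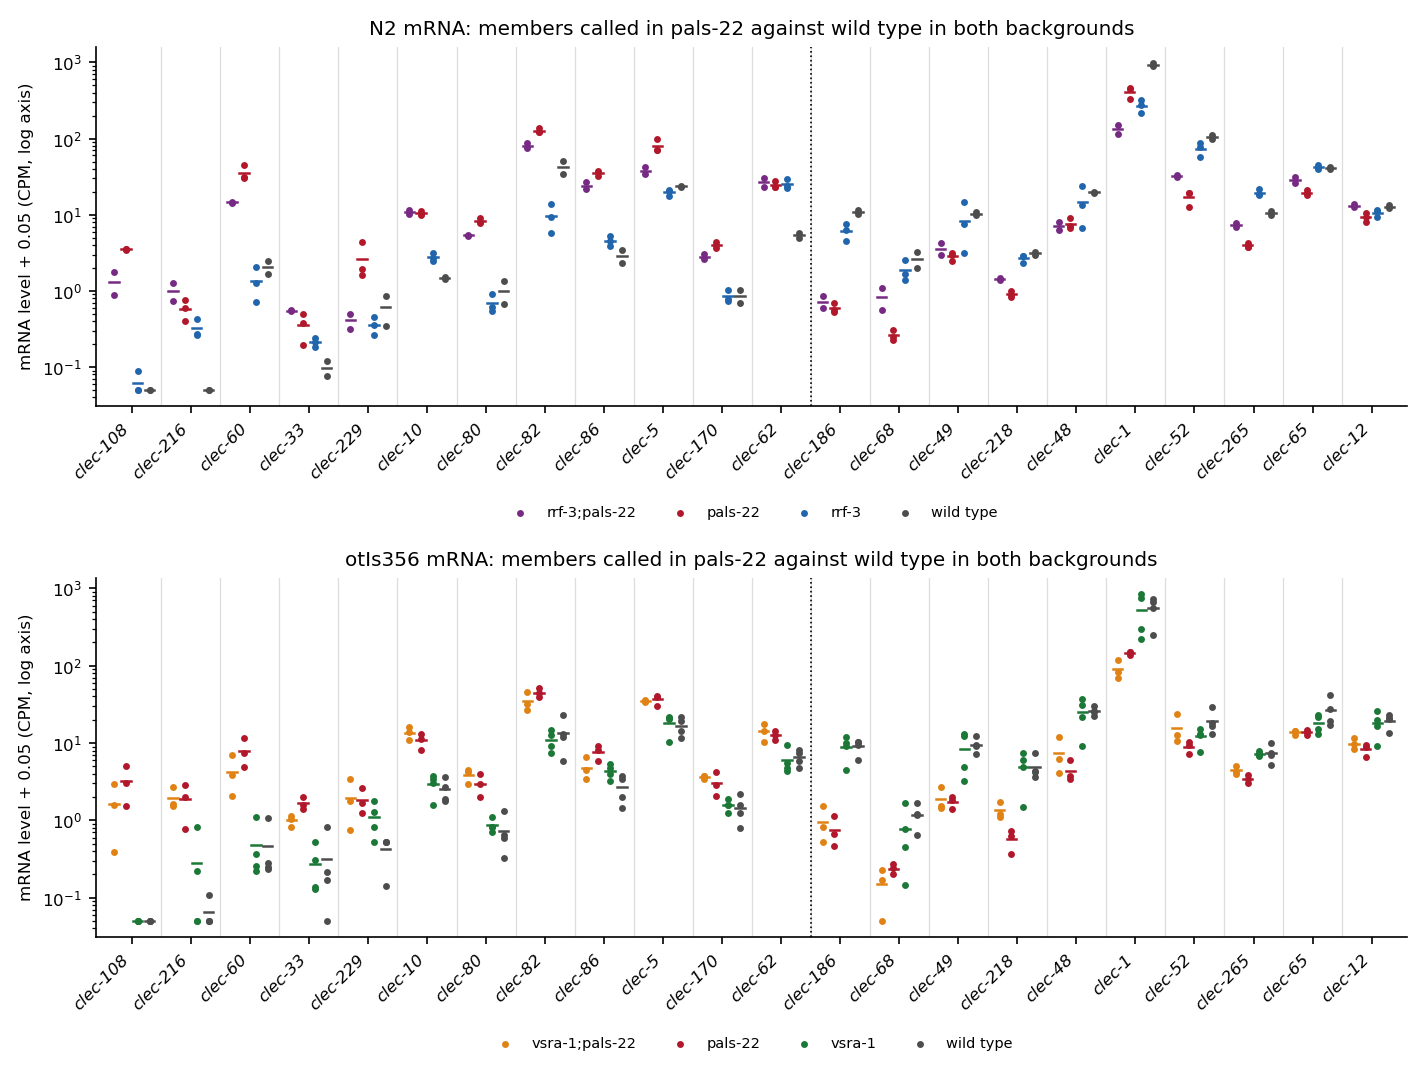
mRNA level (CPM plus 0.05, log axis) of the 22 lectin genes called in the same direction in pals-22 against wild type of both backgrounds, in N2 (top) and otIs356 (bottom). Points are libraries and bars are means per genotype; genes right of the dotted line fell. clec-108 is at 0 (the lowest level drawn) in all wild-type libraries of both backgrounds, and clec-60 is above wild type in every pals-22 library of both.

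Most lectins called in *otIs356* *pals-22* were also called in N2, in the same direction, and the 2 backgrounds share no library. Of the 105 members tested in both, 22 were called in both, 12 higher and 10 lower, and none in opposite directions. These 22 were 29.7% of the 74 called in N2, of which 57 were tested in *otIs356*, and 84.6% of the 26 called in *otIs356*. Over all 16619 genes tested in both, 1493 were called in both, 15.4% of those called in N2 and 82.0% of those called in *otIs356*, and 97.7% of the 1493 in the same direction. The log2 fold changes had the same sign in 83 of the 105 lectins (79.0%) and in 73.7% of all genes. Their Pearson and Spearman correlations were 0.87 and 0.76 over the lectins and 0.64 and 0.59 over all genes, which share libraries within each background and are not independent. The lectin Pearson value includes *clec-108* and *clec-216*, the largest rises in both backgrounds, whose N2 values depend on the prior count. It is therefore not read as a closer match than over all genes. The 12 that rose in both were *clec-108*, *clec-216*, *clec-60*, *clec-33*, *clec-229*, *clec-10*, *clec-80*, *clec-82*, *clec-86*, *clec-5*, *clec-170* and *clec-62*. The 10 that fell in both were *clec-186*, *clec-68*, *clec-49*, *clec-218*, *clec-48*, *clec-1*, *clec-52*, *clec-265*, *clec-65* and *clec-12*. *clec-10* (chrII:402678-404180), for example, measured 10.3, 9.90 and 11.2 CPM in N2 *pals-22* against 1.49 and 1.40 CPM in wild type, and 13.1, 8.06 and 11.3 CPM in *otIs356* *pals-22* against 2.64, 1.71, 1.86 and 3.64 CPM in wild type. The 4 called in *otIs356* alone were *clec-74*, *clec-47* and *clec-233*, which rose, and *clec-51*, which fell. Of the 22, *clec-229* had 4.37, 1.89 and 1.58 CPM in N2 *pals-22* and 0.820 and 0.297 CPM in wild type, and its N2 call was lost without wild type replicate 2 (adjusted p = 0.130), with a log2 fold change of 1.64 to 3.12 over the fits without 1 library of either genotype, against 2.23 with all.

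Other members of the 22 lay at higher levels. *clec-82* (chrIV:2835664-2838723) measured 44.3, 39.4 and 51.2 CPM in *otIs356* *pals-22* and 13.03, 12.1, 23.3 and 5.73 CPM in wild type, with a log2 fold change of 1.74 (SE 0.37), beside 1.57 (SE 0.31) in N2. *clec-5* mRNA measured 39.8, 30.3 and 40.0 CPM in *otIs356* *pals-22* and 21.6, 19.4, 11.6 and 14.1 CPM in wild type, with a log2 fold change of 1.13 (SE 0.26), beside 1.76 (SE 0.18) in N2. *clec-62* (chrII:12893062-12895128) had 0.97 (SE 0.29) in *otIs356* and 2.21 (SE 0.17) in N2. In each of these genes the *pals-22* libraries lay above those of wild type in both backgrounds. Of those that fell, *clec-218* (chrV:8307942-8310766) measured 0.790, 0.960 and 0.844 CPM in N2 *pals-22* and 2.95 and 3.18 CPM in wild type, and 0.586, 0.317 and 0.669 CPM in *otIs356* *pals-22* and 7.28, 3.56, 4.18 and 4.30 CPM in wild type. *clec-48* had log2 fold changes of -1.37 (SE 0.42) in N2 and -2.55 (SE 0.46) in *otIs356*, *clec-265* of -1.41 (SE 0.11) and -1.10 (SE 0.23), *clec-65* of -1.08 (SE 0.10) and -0.95 (SE 0.29), and *clec-12* of -0.48 (SE 0.13) and -1.23 (SE 0.30). Of the 4 called in *otIs356* alone, *clec-233* (named after its values were seen) had the closest libraries, at 10.8, 12.1 and 11.8 CPM in *pals-22* and 4.52, 4.67, 5.02 and 5.29 CPM in wild type.

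**Figure D3:**
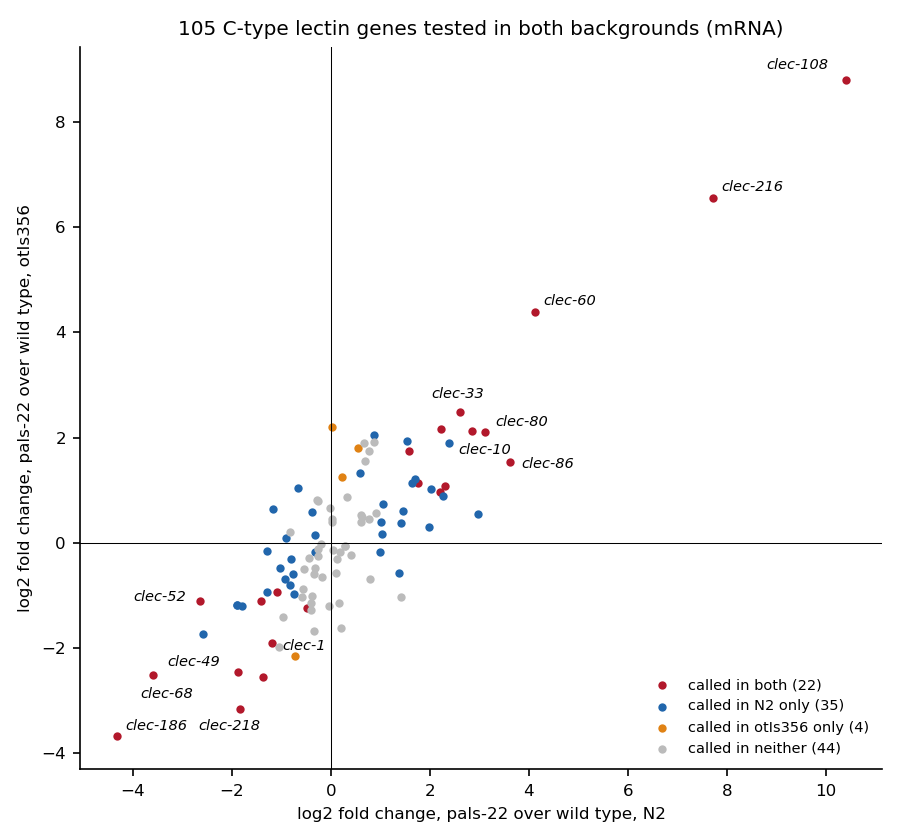
Log2 fold change of mRNA in pals-22 over wild type in N2 (x axis) and otIs356 (y axis) for the 105 lectin genes tested in both; colours give the calls. The 22 genes called in both lie at the upper right and lower left; the fitted values of clec-108 and clec-216 in N2, which are at 0 in wild type, depend on the prior count.

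Promoters of the shared genes were read because members that move together can share sequence motifs. GATA factors such as ELT-2, the main transcription factor of the worm intestine, bind sites with the core TGATAA. In windows of 300 bases before the annotated gene start, TGATAA on either strand occurred in 126 of 240 lectin promoters (52.5%) and in 6136 of 19973 promoters of all protein-coding genes (30.7%). By call in N2 *pals-22*, the share was 69.0% among the 42 that rose, 68.8% among the 32 that fell, 43.5% among the 85 tested and not called, and 46.9% among the 81 not tested. In *otIs356* it was 73.3% of the 15 that rose, 90.9% of the 11 that fell, 59.3% of the 81 tested and not called, and 42.9% of the 133 not tested. Shares by call over all genes are not given, so the shares by call among lectins have no background. In N2 the share was thus nearly the same for genes that rose and genes that fell. The E-box CACGTG was in 3.33% of lectin promoters and 5.74% of all promoters, the DAF-16 element GTAAACA in 3.33% and 5.01%, and the CRE-like TGACGTCA in 2.08% and 1.57%. No motif here contains another, and a match marks letters, not a bound site. Printed are the windows of the 3 genes that rose and the 3 that fell in both backgrounds with the largest of the smaller log2 fold change, among those whose window overlaps no other gene. They are from the RefSeq WBcel235 genome, 5′ to 3′ on the strand of the gene, with TGATAA or its reverse complement TTATCA in capitals. Those of *clec-60* (chrII:10481875-10482174, minus strand, 2 sites), *clec-229* (chrV:15341505-15341804, minus strand, 0 sites) and *clec-10* (chrII:402378-402677, plus strand, 1 site) belong to genes that rose. Those of *clec-68* (chrIV:3926117-3926416, plus strand, 1 site), *clec-49* (chrV:19751227-19751526, minus strand, 1 site) and *clec-218* (chrV:8307642-8307941, plus strand, 3 sites) belong to genes that fell.
clec-60: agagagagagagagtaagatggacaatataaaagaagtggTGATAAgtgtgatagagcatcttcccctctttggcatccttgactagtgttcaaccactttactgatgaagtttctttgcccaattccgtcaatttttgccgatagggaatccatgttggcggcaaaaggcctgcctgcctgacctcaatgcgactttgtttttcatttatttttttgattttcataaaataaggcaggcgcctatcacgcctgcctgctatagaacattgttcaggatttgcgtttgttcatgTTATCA
clec-229: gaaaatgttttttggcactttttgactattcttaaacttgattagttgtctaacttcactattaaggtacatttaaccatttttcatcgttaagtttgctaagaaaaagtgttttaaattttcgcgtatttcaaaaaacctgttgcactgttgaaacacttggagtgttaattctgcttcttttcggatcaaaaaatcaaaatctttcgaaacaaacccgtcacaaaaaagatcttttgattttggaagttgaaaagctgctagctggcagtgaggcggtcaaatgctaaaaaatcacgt
clec-10: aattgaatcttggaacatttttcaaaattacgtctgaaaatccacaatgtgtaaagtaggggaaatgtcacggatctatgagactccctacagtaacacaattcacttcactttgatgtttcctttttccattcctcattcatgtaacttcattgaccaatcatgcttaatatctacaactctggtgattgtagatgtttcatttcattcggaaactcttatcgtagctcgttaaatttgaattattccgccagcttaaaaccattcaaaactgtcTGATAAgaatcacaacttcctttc
clec-68: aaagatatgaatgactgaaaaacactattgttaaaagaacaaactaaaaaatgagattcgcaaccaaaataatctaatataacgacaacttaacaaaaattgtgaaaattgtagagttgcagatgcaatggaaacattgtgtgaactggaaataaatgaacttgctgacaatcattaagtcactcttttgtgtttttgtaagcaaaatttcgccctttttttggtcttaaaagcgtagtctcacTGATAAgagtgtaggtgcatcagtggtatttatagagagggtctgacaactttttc
clec-49: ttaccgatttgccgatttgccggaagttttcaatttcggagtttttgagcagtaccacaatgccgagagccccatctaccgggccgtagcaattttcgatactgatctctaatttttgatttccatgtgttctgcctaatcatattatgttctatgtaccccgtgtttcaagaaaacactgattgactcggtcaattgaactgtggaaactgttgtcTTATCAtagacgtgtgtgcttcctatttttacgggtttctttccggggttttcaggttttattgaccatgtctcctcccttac
clec-218: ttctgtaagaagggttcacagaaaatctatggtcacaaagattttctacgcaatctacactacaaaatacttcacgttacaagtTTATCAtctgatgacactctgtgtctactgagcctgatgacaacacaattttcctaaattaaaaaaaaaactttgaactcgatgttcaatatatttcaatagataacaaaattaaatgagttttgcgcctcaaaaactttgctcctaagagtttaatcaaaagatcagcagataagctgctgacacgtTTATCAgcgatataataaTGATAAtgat

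The *elt-2* transcript rose in *pals-22* of both backgrounds. In N2 its mean was 49.5 CPM in *pals-22* against 21.2 CPM in wild type (log2 fold change 1.22, SE 0.13, edgeR adjusted p = 0.000211). In *otIs356* it was 35.4 CPM in *pals-22* against 22.8 CPM in wild type (log2 fold change 0.63, SE 0.16, edgeR adjusted p = 0.0377). It is 1 of the 7 intestine markers, of which 2 rose and 4 fell in N2 *pals-22*, and 1 rose and 2 fell in *otIs356* *pals-22*. The part of *elt-2* in the lectin changes was not tested. Of 19 regulators of worm immunity, all tested, 5 rose and 9 fell in N2 *pals-22*. Those that rose included *tir-1*, an adaptor of the p38 pathway (log2 fold change 0.87), *zip-2* (0.70) and *vhp-1*, a phosphatase of that pathway (0.64), and those that fell included the kinase gene *sek-1* (-0.67), *sma-2* of the TGF-beta pathway (-0.82) and the receptor gene *fshr-1* (-0.80). Of 15 lysozyme genes tested 4 rose and 2 fell, and of 12 galectins, another lectin family, 5 rose and 2 fell. In *otIs356* *pals-22*, 1 regulator rose (*elt-2*) and 1 fell, 1 lysozyme rose and none fell, and 1 galectin rose and 2 fell.

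Members of a cluster did not always move together. The 5 tested genes of the cluster *clec-165* to *clec-170* on chromosome IV all rose in N2 *pals-22*, with log2 fold changes between 1.04 (*clec-165*) and 2.56 (*clec-169*). Over all genes 23.3% were called higher there. *clec-166* averaged 3.13 CPM in N2 *pals-22* and 0.646 CPM in wild type. In *otIs356* *pals-22*, 3 genes of this cluster were tested. Only *clec-170* was called (1.07), while *clec-165* (0.17, SE 0.78) and *clec-166* (0.89, SE 0.51) were not. Of 8 tested genes in the 13-gene cluster on chromosome V that runs from *clec-40* to *clec-33*, 5 rose in N2 *pals-22* (*clec-26*, *clec-35*, *clec-24*, *clec-28* and *clec-33*) and none fell, all at levels under 1 CPM. In *otIs356* *pals-22*, 6 of its genes were tested and 1 rose. In the 11-gene cluster *clec-67* to *clec-79* on chromosome IV, 10 genes were tested, 6 fell and 1 rose: *clec-68* had a log2 fold change of -3.59 (SE 0.43) and *clec-76* of -1.79 (SE 0.20), while *clec-73* between them had 1.99 (SE 0.30). The neighbours *clec-80* to *clec-85* and *clec-62* to *clec-66* were split, with 2 genes up and 2 down in each. *clec-82* measured 122.1, 137 and 120.4 CPM in *pals-22* and 34.7 and 50.2 CPM in wild type, whereas *clec-84* in the same cluster measured 89.2, 95.7 and 88.4 CPM and 145 and 161 CPM. Of 7 clusters with at least 2 called members, 3 held calls in 1 direction and 4 in both. None of the 7 genes from *clec-127* to *clec-134* on chromosome II had enough counts to be tested.

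**Figure D4:**
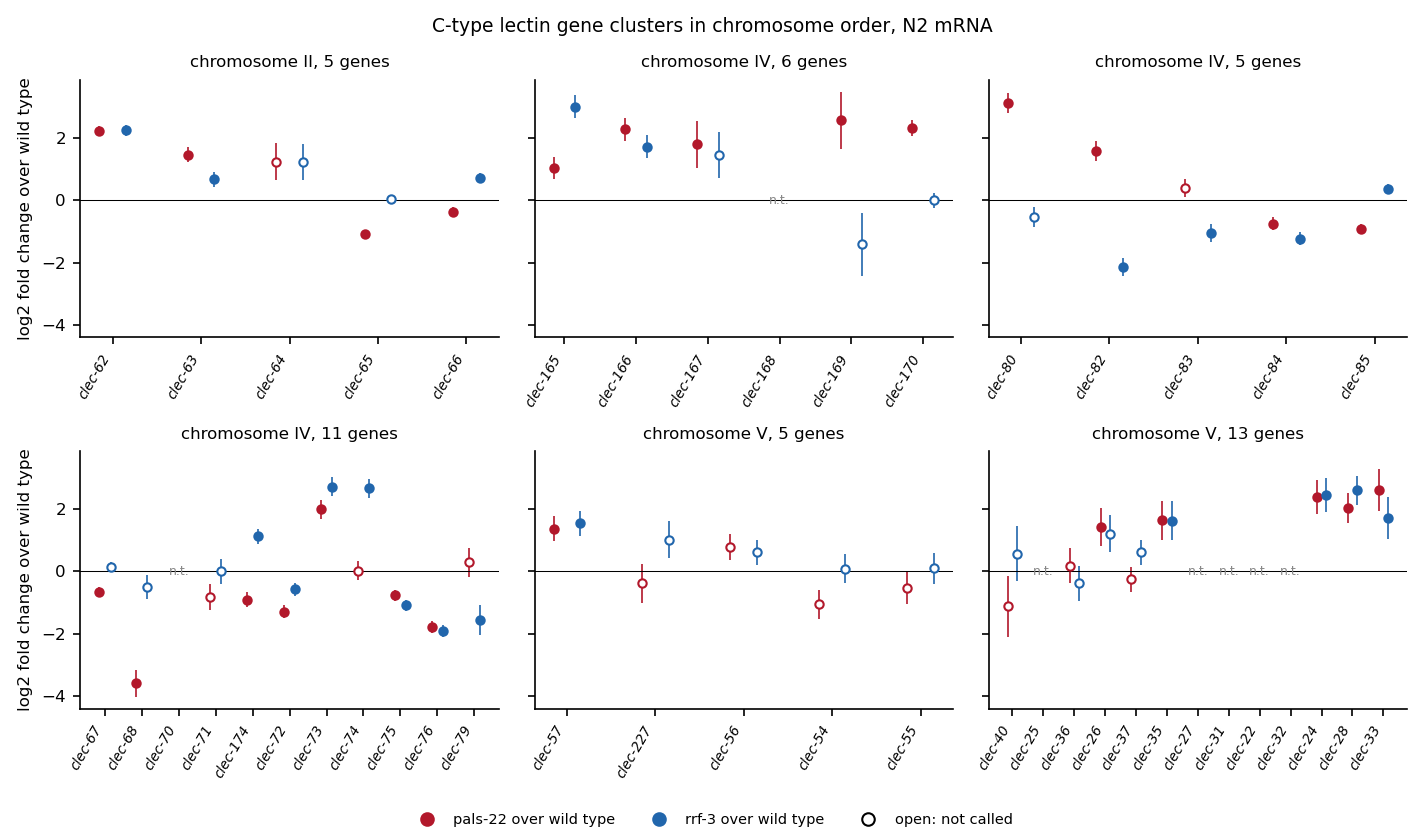
Log2 fold change of N2 mRNA in pals-22 and in rrf-3 over wild type (both compared with the same 2 wild-type libraries) for lectin genes in chromosome order, in the 6 clusters with at least 5 genes tested; bars are standard errors, open points were not called and n.t. marks genes not tested. In the 6-gene cluster of chromosome IV all 5 tested genes lie above 0 in pals-22, and in the 11-gene cluster clec-73 lies above 0 among genes that fell.

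Loss of *rrf-3* raised more lectins than it lowered. Of the same 159 tested members, 57 rose and 28 fell in *rrf-3* against wild type, 53.5% of those tested, where 67.7% of all genes were called (31.9% higher and 35.8% lower), with a median log2 fold change of 0.42 over the lectins and -0.02 over all genes. Under scaling by library totals 75 rose and 21 fell. *clec-41* (chrV:13134903-13138101) measured 67.4, 76.1 and 64.3 CPM in *rrf-3* and 9.71 and 4.14 CPM in wild type, with a log2 fold change of 3.33 (SE 0.32) and an adjusted p of 5.20e-05; the value was 4.06 without wild type replicate 1. *clec-93* measured 0.344, 0.284 and 0.419 CPM in *rrf-3* against no count in wild type, and *clec-216* measured 0.210, 0.379 and 0.224 CPM in *rrf-3*. Their lowest *rrf-3* libraries were 3.70 and 2.73 times the wild-type floor. *clec-148* measured 0.611, 0.436 and 0.553 CPM in *rrf-3* and 0 and 0.0457 CPM in wild type. All 4 of these genes were without overlap between the groups. *clec-165* (chrIV:1245171-1246886) measured 2.35, 2.08 and 1.42 CPM in *rrf-3* and 0.231 and 0.252 CPM in wild type, and *clec-21* had a log2 fold change of 3.51 (SE 0.60) and an adjusted p of 0.00102 (4.35 without wild type replicate 2), while the call of *clec-240* (3.34) was lost without wild type replicate 2 (adjusted p = 0.244). On the other side, *clec-47* measured 3.47, 1.88 and 5.02 CPM in *rrf-3* and 10.3 and 29.99 CPM in wild type, where the wild-type libraries themselves lay far apart, and its log2 fold change moved to -1.57 without wild type replicate 2, against -2.53 with it. *clec-82* measured 9.34, 5.76 and 13.7 CPM in *rrf-3*, under both wild-type libraries, with a log2 fold change of -2.14 (SE 0.30) and an adjusted p of 0.000363. *clec-76*, *clec-61*, *clec-1* and both copies named *clec-15* fell with log2 fold changes of -1.91, -1.84, -1.78 and -1.79.

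The comparisons of *pals-22* and of *rrf-3* share the wild-type libraries, so their values are only set side by side. *clec-82* had log2 fold changes of 1.57 in *pals-22* and -2.14 in *rrf-3*, *clec-60* of 4.13 and -0.64, *clec-41* of 1.01 and 3.33, and *clec-186* of -4.32 and -0.85. Markers of several cell types moved between the same libraries. The germ-line markers summed to 34.8 to 40.4 CPM in *rrf-3*, against 6.496 and 8.99 CPM in wild type (6 of 6 called higher), the molting markers to 28.97 to 42.2 CPM, against 15.2 and 18.7 CPM (3 of 5 higher), and the coelomocyte markers to 6.31 to 8.09 CPM, against 3.02 and 3.36 CPM (2 of 2 higher). The intestine markers summed to 754 to 1108 CPM in *rrf-3*, against 1354 and 1409 CPM in wild type (1 of 7 higher and 4 lower), the body wall muscle markers to 666 to 944 CPM, against 1375 and 2107 CPM (3 of 3 lower), and the sperm markers to 1.60 to 5.86 CPM, against 8.74 and 27.9 CPM (1 of 8 lower). Their part in the lectin changes was not tested. Of the immune regulators 4 rose and 13 fell in *rrf-3*, of the lysozymes 6 rose and 1 fell, and of the galectins 4 rose and 5 fell.

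Adding *rrf-3* to *pals-22* moved many lectins in the direction in which *rrf-3* alone moved them, about as often as over all genes. In *rrf-3;pals-22* against *pals-22*, 36 members rose and 15 fell, 32.1% of those tested, where 35.6% of all genes were called (18.5% higher and 17.0% lower). Of the 51, 39 were also called in *rrf-3* against wild type, a comparison with other libraries, 26 of them higher in both, 9 lower in both and 4 in opposite directions. These 39 were 45.9% of the 85 called in *rrf-3* and 76.5% of the 51, where over all genes those called in both were 44.7% and 85.04%. Among those called in both, 89.7% of the lectins and 93.3% of all genes moved in the same direction. The sign was the same in 75.5% of the tested lectins and 75.3% of all genes. *clec-74* measured 4.05 and 3.91 CPM in *rrf-3;pals-22* and 0.746, 0.660 and 1.31 CPM in *pals-22*, and 5.61, 6.84 and 4.57 CPM in *rrf-3* and 0.948 and 0.846 CPM in wild type. *clec-196* measured 23.4 and 27.4 CPM in *rrf-3;pals-22* and 5.84, 7.62 and 6.88 CPM in *pals-22*, and 32.6, 36.0 and 26.4 CPM in *rrf-3* and 9.27 and 4.48 CPM in wild type. In both genes the libraries with the *rrf-3* mutation lay above those without it. Several genes that rose in *pals-22* were lower in the double mutant: *clec-60* measured 14.8 and 14.1 CPM in *rrf-3;pals-22* and 31.6, 30.03 and 45.4 CPM in *pals-22*, with a log2 fold change of -1.30 (SE 0.34) and an adjusted p of 0.0259, and remained above the 1.64 and 2.42 CPM of wild type. *clec-108*, at 1.70 and 0.824 CPM in *rrf-3;pals-22* and 3.47, 3.39 and 3.50 CPM in *pals-22*, was called lower at an adjusted p of 0.0804 and lost that call in each of the 5 fits without 1 library of the 2 genotypes (adjusted p 0.118 to 0.309 in edgeR). The count of 51 fell to 28 without *rrf-3;pals-22* replicate 1. Between the same libraries the hypodermis markers summed to 174 and 191 CPM in *rrf-3;pals-22*, against 247 to 299 CPM in *pals-22* (3 of 4 called lower), the sperm markers to 1.84 and 60.3 CPM, against 88.8 to 309.95 CPM (3 of 8 lower), and the germ-line markers to 24.8 and 35.4 CPM, against 16.3 to 22.2 CPM (3 of 6 higher). Of the intestine, molting and body wall muscle markers 1 each was called lower, and both coelomocyte markers were called higher; the part of these differences in the lectin changes was not tested. Of the immune regulators 3 rose and 6 fell, of the lysozymes 3 rose and 1 fell, and of the galectins 4 rose and 1 fell.

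An interaction term, which asks whether *rrf-3* acts differently with and without *pals-22*, was called in 45 lectins, 18 positive and 27 negative, where 37.1% of all genes were called (21.5% positive and 15.7% negative). Under scaling by library totals 10 were positive and 33 negative. *clec-52* measured 33.2 and 30.9 CPM in *rrf-3;pals-22* and 12.6, 19.4 and 19.03 CPM in *pals-22*, but 77.9, 56.7 and 87.6 CPM in *rrf-3* and 100 and 111 CPM in wild type, an interaction of 1.42 (SE 0.30) on the log2 scale (adjusted p = 0.0120). *clec-42* had an interaction of -2.40 (SE 0.53), with 2.56 to 5.89 CPM in the mutant libraries of all 3 genotypes and 0.412 and 0.538 CPM in wild type; its value was -3.02 without *rrf-3;pals-22* replicate 1. *clec-68* had 2.34 (SE 0.58) and *clec-3* 1.58 (SE 0.47).

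In *otIs356*, loss of *vsra-1* left the lectin mRNAs without a call. In *vsra-1* against wild type edgeR called 0 of 107 members at an adjusted p under 0.1 (4 at an unadjusted p under 0.05), in *vsra-1;pals-22* against *pals-22* it called 0 (7 at an unadjusted p under 0.05) and in the interaction 0 (8), where 0.00598% of all genes, 1 gene, was called in each. DESeq2 called 1 member in each of these comparisons, and each time it was *clec-233*, higher in *vsra-1* than in wild type and lower in the double mutant than in *pals-22*. Its level was 3.68, 7.95 and 6.22 CPM in *vsra-1;pals-22*, 10.8, 12.1 and 11.8 CPM in *pals-22*, 8.34, 7.92, 8.46 and 7.18 CPM in *vsra-1* and 4.52, 4.67, 5.02 and 5.29 CPM in wild type, so that *pals-22* lay above every other library, *vsra-1* above wild type, and the double mutant overlapped both *vsra-1* and wild type. In edgeR its interaction was -1.65 (SE 0.31) with an adjusted p of 0.687. None of the 26 lectins called in *pals-22* was thus called between the double mutant and *pals-22*, which does not show that their levels were alike. *clec-60* measured 6.85, 3.80 and 2.05 CPM in *vsra-1;pals-22* and 4.87, 7.30 and 11.7 CPM in *pals-22*, and *clec-186* 1.504, 0.760 and 0.481 CPM and 0.622, 1.08 and 0.412 CPM, with overlap between the 2 genotypes in both genes. *clec-1*, *clec-33* and *clec-233* lay lower in every *vsra-1;pals-22* library than in any *pals-22* library (means ± SD, n = 3 each, of 89.5 ± 24.4 and 146 ± 5.97 CPM for *clec-1*), and *clec-52*, *clec-218* and *clec-265* lay higher (15.6 ± 6.99 and 8.91 ± 1.53 CPM for *clec-52*), all at an adjusted p of 0.912 or more. In this comparison 10 of the 107 members lay higher and 7 lower without overlap. The share over all genes is not given, so such separations have no background and are not read as an effect of *vsra-1*. Replicate 1 of *vsra-1;pals-22* had the lowest depth, 5479218 counts, and the vitellogenin and oocyte markers at 164 CPM, against 15.4 and 16.2 CPM in the other 2. None of the immune regulators, lysozymes and galectins was called in these 3 comparisons.

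Antisense sRNA, a strand that was inferred from the counts, had a mean over 1 CPM at 34 of 240 lectins in N2 *pals-22*, against 24 in wild type. A count of 0 allows up to 0.276 CPM in N2 and 0.434 CPM in *otIs356* libraries. Genes above a level of 5 (reads scaled to a common library total) in at least 1 library were tested, 18 lectins in N2 and 24 in *otIs356*, and 40 and 35 members were at 0 in all *pals-22* libraries of N2 and *otIs356*. In N2 *pals-22*, 9 rose and 3 fell, 66.7% of those tested, where 39.1% of all 7243 genes were called (18.3% higher and 20.8% lower), and under scaling by library totals 15 rose and 1 fell. In *otIs356* *pals-22*, 12 rose and 3 fell, 62.5% of those tested, where 26.3% of 8042 genes were called (11.7% higher and 14.6% lower). These counts depend on the level that let a gene in, since 9 of the 18 members in N2 and 12 of the 24 in *otIs356* passed it in no wild-type library. Of the members that passed it in a wild-type library, 3 rose and 3 fell in N2 and 4 rose and 3 fell in *otIs356*, and of the rest 6 and 8 rose and 0 fell. In *otIs356*, *clec-41*, *clec-63*, *clec-80*, *clec-150* and *clec-60* passed it only in *vsra-1;pals-22* replicate 1. The summed lectin sRNA was 769 to 831 CPM in N2 *pals-22* and 480.4 to 536 CPM in wild type, and 488 to 613 CPM in *otIs356* *vsra-1;pals-22*, 594 to 679 CPM in *pals-22*, 301.5 to 381 CPM in *vsra-1* and 320 to 403 CPM in wild type. The genotypes with the *pals-22* mutation lay above those without it.

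Much of this sRNA lay on 1 gene, *clec-166* (chrIV:1249192-1251342). It measured 422, 372 and 384 CPM in N2 *pals-22* and 162, 162 and 207 CPM in wild type, with a log2 fold change of 1.15 (SE 0.10) and an adjusted p of 3.38e-06. In *otIs356* it measured 258, 323 and 245 CPM in *vsra-1;pals-22*, 302, 351 and 360.0 CPM in *pals-22*, 148, 142, 99.7 and 115.2 CPM in *vsra-1* and 132, 133, 182 and 118 CPM in wild type, with a log2 fold change of 1.25 (SE 0.16) and an adjusted p of 7.02e-05 for *pals-22*. In both backgrounds *pals-22* and wild type were far apart, and in *otIs356* *pals-22* and the double mutant overlapped. Per kb of coding length *clec-166* had 281 CPM in N2 *pals-22* and 127 CPM in wild type, *clec-119* 68.1 and 45.2 CPM, and *clec-238* 95.6 and 112 CPM. The sum without *clec-166* was 397 to 409 CPM in N2 *pals-22* and 319 to 328 CPM in wild type. In *otIs356* it was 243 to 356 CPM in *vsra-1;pals-22*, 289 to 319 CPM in *pals-22*, 202 to 239 CPM in *vsra-1* and 202 to 245 CPM in wild type. Without *clec-166* the double mutant thus overlapped wild type, whereas *pals-22* did not.

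In all, 7 lectins had sRNA called in the same direction in both backgrounds: *clec-5*, *clec-84*, *clec-166*, *clec-171* and *clec-119* rose, and *clec-140* and *clec-238* fell. Of those that rose, *clec-5*, *clec-84* and *clec-171* passed the level for testing only in libraries with the *pals-22* mutation, in both backgrounds. Their direction was thus largely set by the filter, whereas *clec-166* and *clec-119* passed it in every library. Over all 6964 genes tested in both, 1148 were called in both, 79.97% of them in the same direction. *clec-5* (chrIII:4881888-4883606) changed most, at 3.93, 4.54 and 2.98 CPM in N2 *pals-22* against 0.0476, 0 and 0.107 CPM in wild type, and 4.17, 6.63 and 5.49 CPM in *otIs356* *pals-22* against 0.219, 0.178, 0.0544 and 0.143 CPM in wild type. *clec-84* (chrIV:2842462-2845605) measured 10.2, 10.8 and 9.63 CPM in N2 *pals-22* and 0.666, 1.56 and 1.44 CPM in wild type, and 6.39, 7.95 and 8.67 CPM in *otIs356* *pals-22* and 1.17, 2.01, 1.52 and 1.43 CPM in wild type; a gene on the other strand, Y54G2A.15, overlaps it, and its sense reads would be counted here too. Both genes were free of overlap between genotypes in each background. *clec-143* was called in opposite directions, lower in N2 *pals-22* (14.5, 18.4 and 14.4 CPM, against 21.3, 20.4 and 21.1 CPM in wild type) and higher in *otIs356* *pals-22* (25.0, 14.5 and 40.0 CPM, against 9.42, 10.5, 9.19 and 6.43 CPM in wild type), and it is overlapped by *tnc-2* on the other strand; the difference between the backgrounds was not tested. *clec-91*, *clec-87* and *clec-266*, also called in 1 background each, are overlapped in the same way by ZK858.8, *iars-2* and *kqt-1*, and *clec-140* shares its strand and place with *hmg-11*. *clec-266* sRNA measured 5.45, 3.79 and 4.91 CPM in *otIs356* *pals-22* and 14.6, 15.4, 10.5 and 11.1 CPM in wild type, without overlap, while in N2 it was not called (7.69, 5.53 and 5.73 CPM in *pals-22* and 6.33, 6.90 and 6.03 CPM in wild type). Among the *otIs356* calls, *clec-41*, *clec-63* and *clec-140* were lost without *pals-22* replicate 2 (adjusted p 0.113 to 0.129 in edgeR) and *clec-63* also without wild type replicate 3 (adjusted p = 0.108). The fall of *clec-238* in N2, -0.22 (SE 0.07), turned to 0.12 under scaling by library totals.

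**Figure D5:**
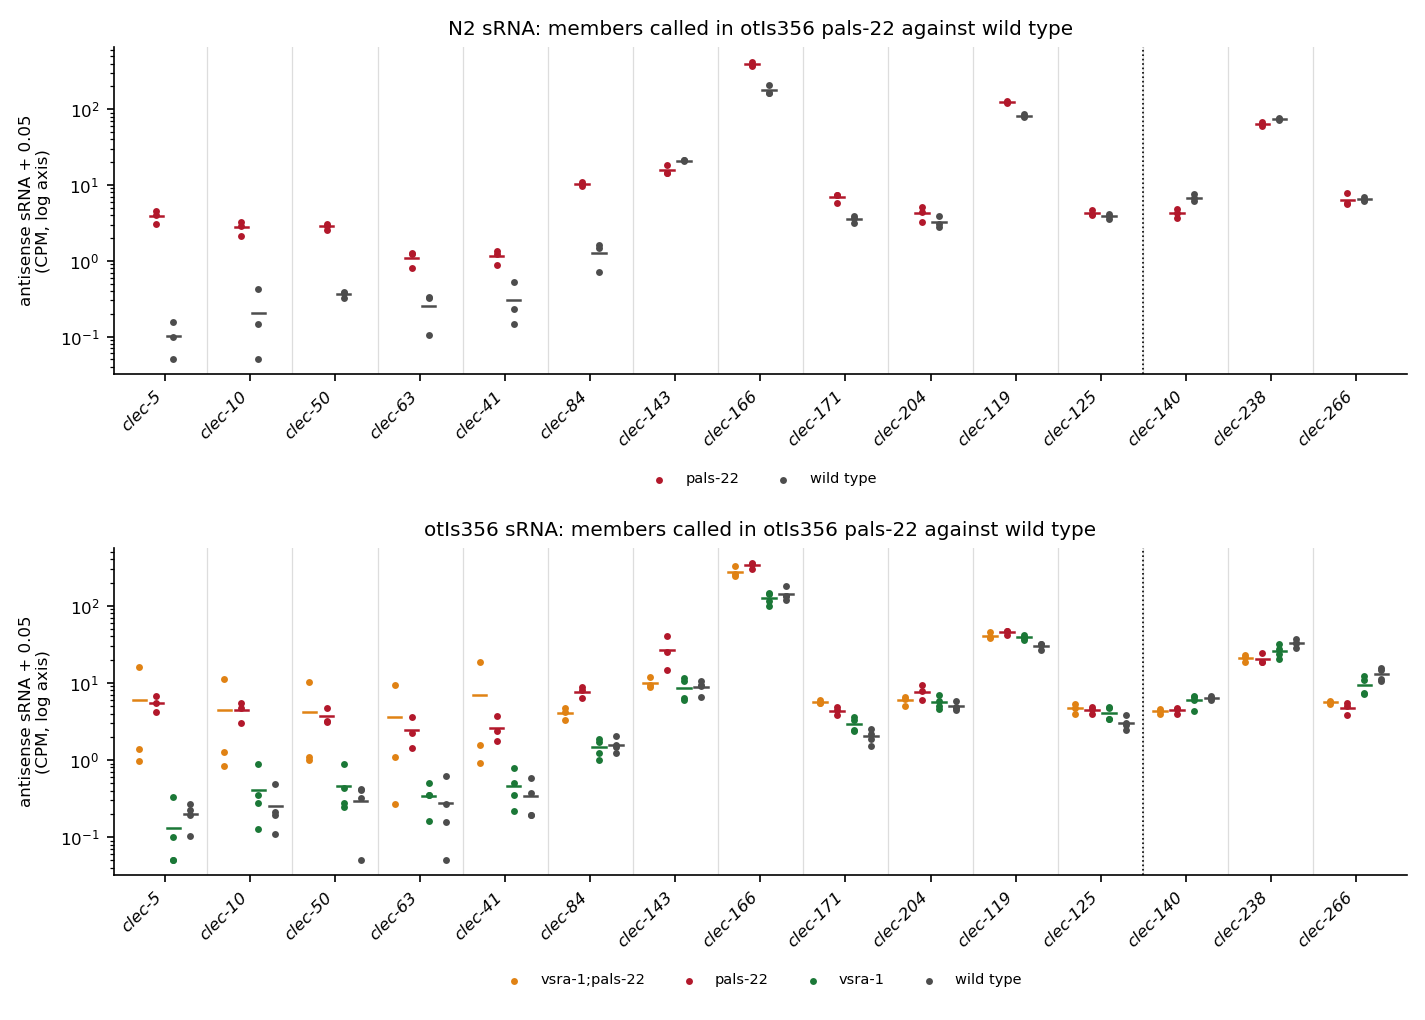
Antisense sRNA level (CPM plus 0.05, log axis) of the lectin genes called in otIs356 pals-22 against wild type, in N2 (top) and otIs356 (bottom); points are libraries, bars are means, and genes right of the dotted line fell. For clec-5, clec-10, clec-50, clec-63 and clec-41 all pals-22 libraries lie above wild type, and 1 library of vsra-1;pals-22 stands above the other 2.

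With a lighter filter, which tested 51 members in N2 and 66 in *otIs356*, 24 and 34 were called in *pals-22* against wild type (33.9% and 22.4% of all genes under that filter), 20 and 30 of them higher. Of these, 16 were higher in both backgrounds: *clec-5*, *clec-10*, *clec-41*, *clec-50*, *clec-52*, *clec-61*, *clec-63*, *clec-65*, *clec-76*, *clec-84*, *clec-119*, *clec-166*, *clec-170*, *clec-171* and both copies named *clec-15*. The shares of all genes called higher, or higher in both backgrounds, are not given for this filter, so these counts have no background. Members near 0 in wild type, such as *clec-61* and *clec-65*, entered this test through mutant libraries. *clec-65* sRNA averaged 2.16 CPM in N2 *pals-22* and 0.0533 CPM in wild type, and 1.99 CPM in *otIs356* *pals-22* and 0.0984 CPM in wild type. *clec-61* sRNA averaged 1.14 CPM in N2 *pals-22* and 0.0931 CPM in wild type, and 1.99 CPM in *otIs356* *pals-22* and 0.0272 CPM in wild type.

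sRNA and mRNA of the same lectin did not move in one direction only. In N2, *clec-5* rose in both (mRNA 69.9, 70.5 and 98.8 CPM in *pals-22*, against 23.8 and 23.2 CPM in wild type), as did *clec-166* (mRNA 3.71, 3.81 and 1.88 CPM, against 0.743 and 0.549 CPM), whereas *clec-84* rose in sRNA and fell in mRNA to a mean of 91.1 ± 4.04 (SD, n = 3) CPM in *pals-22*, against 153 ± 11.4 (SD, n = 2) CPM in wild type. Of the 12 members with called sRNA in N2, these 3 also had called mRNA, 2 in the same direction. In *otIs356* it was 2 of 15, *clec-5* and *clec-10*, both higher in both. Of the 16 members above, *clec-52*, *clec-65*, *clec-76* and *clec-84* had less mRNA in N2 *pals-22*, with log2 fold changes of -2.63, -1.08, -1.79 and -0.75. Others of the 16 had more: *clec-5*, *clec-10*, *clec-166* and *clec-170* had log2 fold changes of 1.76, 2.86, 2.27 and 2.30, and *clec-41* and *clec-63* also rose. Over the 18 and 21 members tested for both kinds of RNA, the correlation of the 2 log2 fold changes was 0.14 in N2 and 0.26 in *otIs356* (Pearson), and 0.09 and 0.28 (Spearman). Of the members tested for sRNA, 9 in N2 and 12 in *otIs356* passed the level for testing in no wild-type library. Of these, 6 and 8 rose and 0 fell. Their sRNA direction was largely set by the filter, so these counts and correlations do not show how sRNA and mRNA relate.

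Few lectins had sRNA called after loss of *vsra-1*. In *vsra-1* against wild type, 1 of 24 tested members was called, where 4.96% of all genes were (2.66% higher): *clec-119* (chrII:1255937-1258375) rose to 36.1, 39.3, 41.4 and 38.6 CPM in *vsra-1*, against 31.7, 30.99, 31.8 and 26.9 CPM in wild type, with a log2 fold change of 0.35 (SE 0.08) and an adjusted p of 0.0276. It measured 38.2, 39.4 and 45.4 CPM in *vsra-1;pals-22* and 46.8, 41.7 and 47.1 CPM in *pals-22*, so the 3 mutants stood above wild type, and it was the only member with a called interaction, -0.49 (SE 0.12) at an adjusted p of 0.0261, where 8.90% of all genes were called and 3.15% had a negative term. In *vsra-1;pals-22* against *pals-22*, 3 members fell and 0 rose, 12.5% of those tested, where 10% of all genes were called (6.69% higher and 3.34% lower). *clec-84* measured 4.18, 4.62 and 3.28 CPM in *vsra-1;pals-22* and 6.39, 7.95 and 8.67 CPM in *pals-22* (log2 fold change -0.93, SE 0.29, adjusted p = 0.0717), and *clec-143* and 1 of the copies named *clec-15* had log2 fold changes of -1.38 (SE 0.33) and -1.28 (SE 0.41). The call of *clec-84* was lost without any of the 3 *pals-22* replicates or *vsra-1;pals-22* replicate 2 or 3 (adjusted p 0.103 to 0.238 in edgeR), and that of *clec-15* in 7 fits, with an adjusted p of up to 0.203. Replicate 1 of *vsra-1;pals-22* stood apart at several lectins: *clec-5* measured 15.9, 1.34 and 0.917 CPM in the 3 replicates, *clec-41* 18.6, 1.52 and 0.874 CPM, *clec-10* 11.2, 1.23 and 0.786 CPM, *clec-50* 10.4, 1.05 and 0.961 CPM and *clec-63* 9.31, 1.05 and 0.218 CPM. In *pals-22* the same genes measured 4.17, 6.63 and 5.49 CPM, 2.30, 3.66 and 1.73 CPM, 2.98, 5.44 and 4.62 CPM, 3.07, 4.71 and 3.18 CPM and 1.36, 3.61 and 2.17 CPM, so replicate 1 lay above and replicates 2 and 3 below all *pals-22* libraries. None of these 5 was called between the 2 genotypes, which does not show that their levels were alike.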

How the data were processed

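mRNA values were estimated counts made by the authors with kallisto through RNAlysis, summed per gene, and scaled by transcript length as the values show. sRNA values were deposited counts of reads per gene, which the authors made from RNA treated with a 5′ polyphosphatase by trimming with CutAdapt (15 to 30 nt), aligning with ShortStack to ce11 and counting with featureCounts. The strand counted is not given for these tables and was read as antisense, since 30 miRNA genes summed to 8.82 RPM in N2 and 9.26 RPM in *otIs356* while the genes opposite them summed to 375469 and 381431 RPM. Members and gene lists were chosen with earlier results of these data known.

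Estimated counts were rounded, and genes kept by filterByExpr (minimum count 10, minimum total 15) for mRNA or, for sRNA, above 5 RPM in at least 1 library. Each table was fitted over all its genotypes with edgeR 4.0.16 (R 4.3.3): TMM scaling, quasi-likelihood test, Benjamini-Hochberg adjustment, called at an adjusted p under 0.1. Named genes were the called members with the largest changes (up to 10 in each direction for *pals-22* mRNA and up to 6 otherwise), the 10 with the highest wild-type mRNA, the 8 with the most sRNA, members called in both backgrounds, interaction calls and members with a known role; cluster members and *clec-233* were named after their values were seen. No promoter of chromosome I was printed. Alternatives were DESeq2 1.42.0, other scalings and filters, blocks and leave-one-out fits. Scripts were tested on simulated data. Genes overlapped on the other strand, and identical copies, are uncertain.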

Additional observations from a re-analysis of the deposited data

Results flagged for a closer look

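In groups of 4 libraries, 5 of 94 groups of named lectins had 1 library set apart from the other 3 by Dixon's 95% criterion, and chance alone flags about 1 group in 20. For *clec-60* mRNA in *otIs356* these were *vsra-1* replicate 3 at 1.05 CPM, with the others at 0.172 to 0.320 CPM, and wild type replicate 3 at 1.02 CPM, with the others at 0.184 to 0.235 CPM. For *clec-216* mRNA 1 wild-type library of *otIs356* was at 0.0587 CPM with the others at 0, and for *clec-229* mRNA 1 wild-type library was at 0.0929 CPM with the others at 0.470 to 0.478 CPM. For *clec-119* sRNA 1 wild-type library of *otIs356* was at 26.9 CPM with the others at 30.99 to 31.8 CPM.

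Of the 45 lectins whose interaction between *rrf-3* and *pals-22* was called in N2 (edgeR, adjusted p under 0.1), 18 had a positive term and 27 a negative one. The 6 largest in size were negative, that is, the effect of *rrf-3* on the log2 scale was lower with *pals-22* than without it, with terms of -5.92 for *clec-216*, -5.22 for *clec-93*, -2.61 for *clec-204*, -2.48 for *clec-28*, -2.41 for *clec-123* and -2.40 for *clec-42*. *clec-216* and *clec-93* were at 0 in wild type, so their fitted sizes depend on the prior count. The calls of *clec-93*, *clec-204* and *clec-123* were each lost in at least 6 fits without 1 library. In *otIs356* sRNA the interaction of *vsra-1* and *pals-22* was -0.49 for *clec-119*.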

How the results depend on the processing

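The counts of called lectins in N2 mRNA stayed within 1.5 times of their value in all settings tried for *pals-22*, *rrf-3* and the interaction, and for the double mutant (51) they fell outside that range only when libraries were left out (28 to 55). For *pals-22* in *otIs356* mRNA (26) DESeq2 gave 43, the fit with the replicate number as a block 43, leaving out 1 library 14 to 47, and leaving out wild type replicate 4 and *vsra-1* replicates 3 and 4, a setting chosen after seeing the data, 64. That last setting removes the only wild-type library with molting markers as high as in *pals-22*. For the *vsra-1* comparisons of *otIs356* mRNA (0) DESeq2 gave 1 each, and leaving out 1 library gave 0 to 1 in *vsra-1* against wild type. For sRNA the low-count filter mattered most: for *pals-22* in N2 (12) edgeR's own filter gave 24 and no filter 35, and in *otIs356* (15) 34 and 40. For *vsra-1* in *otIs356* sRNA (1) library totals gave 2 and leaving out 1 library 1 to 2; for the interaction (1) DESeq2 gave 2, library totals 2 and leaving out 1 library 1 to 2; for the double mutant (3) library totals gave 1, no filter 5 and leaving out 1 library 1 to 3.

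Scaling by library totals instead of TMM, added for mRNA after seeing the data, moved the mean lectin sums to 2044 in *rrf-3;pals-22*, 2266 in *pals-22*, 2216 in *rrf-3* and 2378 in wild type of N2 mRNA, to 1852 in *vsra-1;pals-22* and 1836 in *pals-22* of *otIs356* mRNA, and to 898 in *pals-22* and 445 in wild type of N2 sRNA. The all-gene median of the log2 fold changes moved under it by 0.16 (*pals-22*) and 0.43 (*rrf-3*) in N2 mRNA, 0.24 (*pals-22*) in *otIs356* mRNA, 0.35 in N2 sRNA and 0.18 (*vsra-1*) in *otIs356* sRNA. Under it *clec-238* sRNA in N2 turned to 0.12, the one reversal among 1801 alternative values of 96 fold changes of named genes, of which 1662 kept their call and 138 lost it. Correlations of deviations between libraries with the same replicate number were over 0.1 in 1 of 13 pairs of N2 mRNA. They were over 0.1 in 1 of 3 pairs of N2 sRNA and 1 of 19 of *otIs356* sRNA. In *otIs356* mRNA they were over 0.1 in 8 of 19 pairs and ran from -0.247 to 0.492, so pairing there was not excluded. With the number as a block the counts in N2 mRNA were 62 for *pals-22*, 86 for *rrf-3*, 39 for the double mutant and 38 for the interaction. For *pals-22* sRNA they were 12 in N2 and 14 in *otIs356*, and the *otIs356* mRNA count is given above. For want of depth, 81 lectins in N2 and 133 in *otIs356* mRNA had too few counts to test. The causes of these differences were not tested.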
